A study of Sus scrofa with 12 samples.

Results

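The microRNAs miR-21, miR-221 and miR-222 were followed in testis from boars of the Hezuo (HZ) and Landrace (LC) breeds at 2 ages. Every entry of the deposited miRNA list that carries one of these 3 numbers was taken, with or without the pig prefix ssc, which gave 14 of the 1452 listed miRNAs. The 12 small RNA libraries fell into 4 groups of 3: HZ boars aged 30 days (Ha) or 120 days (Hb) and LC boars aged 30 days (La) or 120 days (Lb). The paper describes no treatment of the animals before castration, and the tissue was whole testis. The HZ pig is an early-maturing native breed, whereas the LC pig is a western commercial breed. RNA was extracted from pooled samples, so it is not known whether a library stands for 1 boar, and the p-values below measure the spread between libraries.

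A microRNA is cut from a hairpin whose 2 strands give a 5p and a 3p arm, and the bases near the 5′ end of the loaded strand, the seed, pair with target mRNAs. miR-21 is one of the most widely expressed mammalian microRNAs, and in the mouse testis it is known from populations enriched for spermatogonial stem cells, where it favours their survival. miR-221 and miR-222 lie together on the X chromosome, share a seed, and are known in the mouse for keeping spermatogonia undifferentiated by repressing the receptor KIT. The libraries hold all cells of the testis and no marker mRNA was measured in them, so the cells that carried these microRNAs were not identified here.

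The sequences below show what was counted. The 5 pig entries are given first, then the entry that has no pig counterpart and the 4 whose 3′ end departs from that of the pig entry, with the seed (bases 2 to 8) in capitals.
ssc-miR-21-5p: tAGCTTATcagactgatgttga
ssc-miR-21-3p: cAACAGCAgtcgatgggctgt
ssc-miR-221-5p: aCCTGGCAtacaatgtagatttctgt
ssc-miR-221-3p: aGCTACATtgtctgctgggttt
ssc-miR-222: aGCTACATctggctactgggtctc
miR-222-x: gGCTCAGTagccagtgtagatcc
miR-21-z: tAGCTTATcagactgataaa
miR-221-x: aCCTGGCAtacaatgtagaaa
miR-221-z: aGCTACATtgtctgctgggttct
miR-222-y: aGCTACATctggctactgggaa

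The remaining 4 entries repeat a pig sequence whole and run on past its 3′ end: miR-21-x (24 nt against 22 nt for ssc-miR-21-5p), miR-21-y (23 nt against 21 nt for ssc-miR-21-3p), miR-221-y (24 nt against 22 nt for ssc-miR-221-3p) and miR-222-z (26 nt against 24 nt for ssc-miR-222). Of the 4 with another 3′ end, miR-21-z shares its first 17 bases with ssc-miR-21-5p, miR-221-x its first 19 with ssc-miR-221-5p, miR-221-z its first 21 with ssc-miR-221-3p and miR-222-y its first 20 with ssc-miR-222. The seed GCTACAT was common to 6 entries, the 3p arms of miR-221 and miR-222. The seed AGCTTAT of the miR-21 5p arm stood in 3 entries and in 1 further listed miRNA, miR-590-x, at a mean of 0.576 TPM. No other listed miRNA had the same sequence as any of the 14, but tags of such nested sequences can be split between entries by the authors' counting, so the sum over an arm is given beside the single entries where the arm has more than 1. miR-222-x was taken as the 5p arm of miR-222 from its suffix, which marks the 5p arm in miR-21-x and miR-221-x.

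In the RefSeq annotation of Sscrofa11.1, MIR21 lies on chromosome 12 from 36065267 to 36065358. MIR221 lies on chromosome X from 40571068 to 40571137 and MIR222 from 40571808 to 40571887, with 670 bases between them. No other listed gene's bounds contain any of these hairpins.

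The libraries held 6520197 to 16874633 counts on listed miRNAs, and the 14 entries took between 0.794% (Hb replicate 2) and 2.22% (Lb replicate 2) of them. Levels are the authors' TPM, a count scaled by a library total without division by length, since a tag is a whole miRNA. That total, as the values imply it, was 1.12 to 1.15 times the counts on listed miRNAs in each library. A count of 0 is written there as 0.01 TPM, and 3 counts correspond to 0.158 to 0.404 TPM, which covers counting error only. The Hb libraries were the least alike. Hb replicate 1 stood apart from Hb replicates 2 and 3 for the 3p sums of miR-221 and miR-222. Values without it are therefore also given for many results. It was singled out from these same values, so results without it only show dependence on 1 library. Over all miRNAs the closest Hb pair was replicates 1 and 3, at a chi-square over degrees of freedom of 279.2. Hb replicate 2 lay further from replicates 1 (768.2) and 3 (490.4) and had the lowest TMM factor of all libraries (0.694). In whole testis, fewer cells of a type and less RNA per cell cannot be told apart.

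By mean TPM over the 12 libraries, ssc-miR-21-5p ranked 18 among the 1452 listed miRNAs with 12449 TPM. ssc-miR-222 ranked 80 (876 TPM), ssc-miR-221-3p 115 (441 TPM), miR-21-x 122 (386 TPM), ssc-miR-221-5p 155 (220 TPM) and ssc-miR-21-3p 200 (115 TPM). The longer miR-221-y had 65.8 TPM, miR-222-y 23.3 TPM and miR-221-z 7.40 TPM. The rest lay near the counting limit, with 1.23 TPM for miR-21-y, 1.10 for miR-222-z, 0.702 for miR-221-x, 0.669 for miR-222-x and 0.270 for miR-21-z. The 5p arm was thus the abundant one in miR-21, the 3p arm in miR-222 and, in 10 of the 12 libraries, the 3p arm in miR-221.

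**Figure D1:**
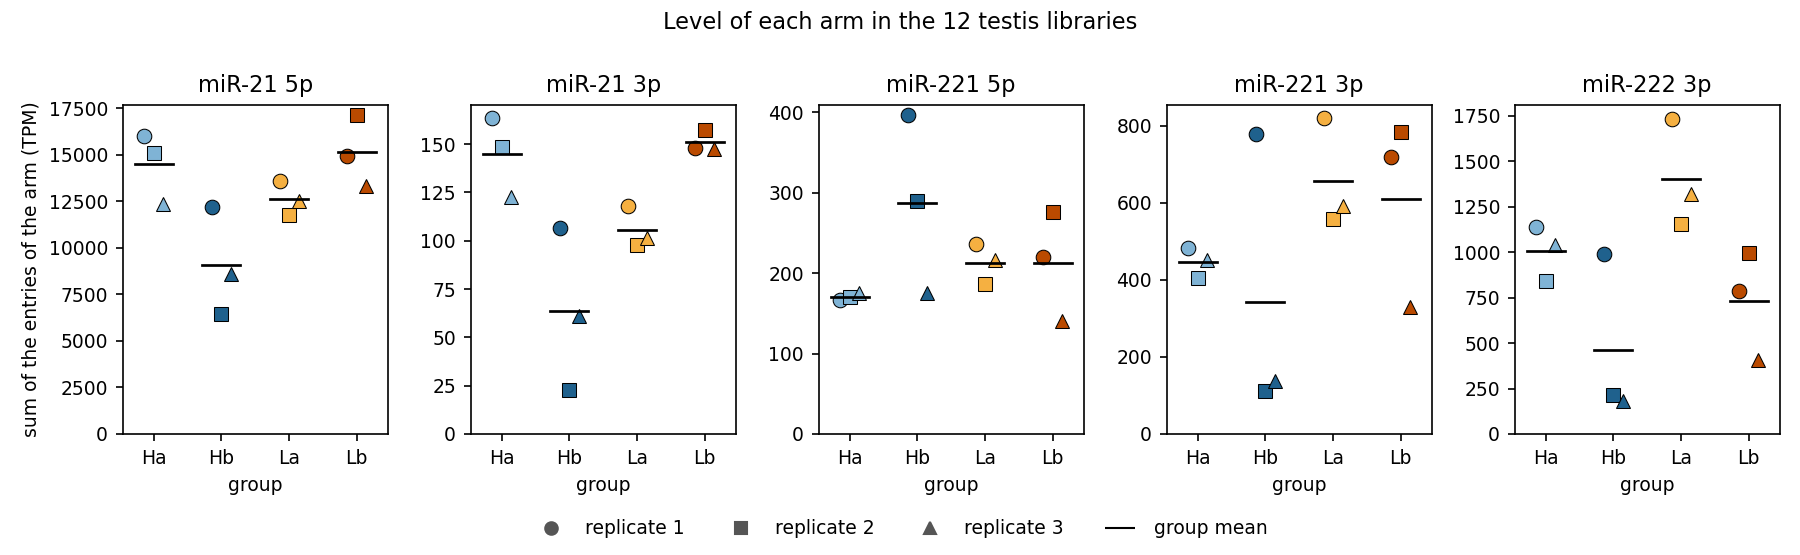
Level of each arm in each library, as the sum of the TPM of its entries (vertical axes, linear and from 0, each with its own range) by group (horizontal axes). Symbols are replicates and horizontal lines group means of 3 libraries. For miR-221 3p and miR-222 3p, Hb replicate 1 (778 and 990 TPM) lies far above Hb replicates 2 and 3 (112 and 138 TPM, 216 and 184 TPM).

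Entries were called where edgeR's quasi-likelihood test gave an unadjusted p under 0.05 and the log2 fold change exceeded 1 in size, and fold changes are those of the group named last over the group named first. In Ha vs. Hb, 4 of the 14 entries (28.6%) were called, 3 lower and 1 higher at 120 days, against 39.6% of all miRNAs tested. In La vs. Lb, 5 entries (35.7%) were called, all lower at 120 days, against 32.1%. The shares called between ages were therefore near the background in both breeds. The median log2 fold change of the 14 was -0.68 (Ha vs. Hb) and -0.25 (La vs. Lb), where that of all miRNAs was 0.32 in each. Without Hb replicate 1 the median of the 14 in Ha vs. Hb was -1.20, against 0.31 for all miRNAs.

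Between the breeds, 4 entries (28.6%) were called in Ha vs. La, all higher in LC boars, against 9.47% of all miRNAs, and 6 entries (42.9%) in Hb vs. Lb, 2 higher and 4 lower in LC boars, against 16.8%. Those called in Ha vs. La were minor forms: miR-221-z, miR-222-z, miR-222-x and miR-21-z, with means of 7.40, 1.10, 0.669 and 0.270 TPM. No pig entry and no arm sum was called there. After Benjamini-Hochberg adjustment over all miRNAs tested, the called entries with an adjusted p under 0.05 in edgeR numbered 3 (Ha vs. Hb), 5 (La vs. Lb), 1 (Ha vs. La) and 0 (Hb vs. Lb). Whatever the fold, 5, 6, 5 and 0 of the 14 had an adjusted p under 0.05. Among all miRNAs tested these were 494 of 1441, 581 of 1446, 145 of 1278 and 47 of 1444. Counts in HZ boars turned on single libraries. Without Hb replicate 1, 12 of the 14 were called in Ha vs. Hb (8 lower and 4 higher, 85.7% against 40.2% of all miRNAs) and 11 in Hb vs. Lb (7 higher and 4 lower, 78.6% against 21.1%). That library was singled out from the values of these same entries, so these counts cannot support a shared change. They include miR-222-z and miR-222-x, whose remaining Hb libraries had 0 counts. The 14 entries are also related forms of a few arms and not separate results. Without Hb replicate 2, the counts were 1 and 0, against 39.0% and 12.8% of all miRNAs. No entry was called in La vs. Lb without Lb replicate 3, against 33.3% of all miRNAs, as the fold changes of all 5 fell short of the threshold or of its p, and 2 were called without La replicate 1 (against 30.2%) and 3 without La replicate 3 (against 29.0%). The count in Ha vs. La was 1 without Ha replicate 2 (against 9.10% of all miRNAs) and 2 without La replicate 3 (8.43%). Scaled by library size alone, which raised the median of all miRNAs by 0.22 in La vs. Lb, 3 entries were called there (against 34.1% of all miRNAs), and ssc-miR-222 (-0.91), miR-222-y (-0.80) and miR-221-z (-0.89) were not among them. With all 12 libraries in 1 fit, which shares the spread of Hb with the other groups, 4 entries were called in Ha vs. La (against 7.92% of all miRNAs), with miR-221-x in place of miR-222-z, but no entry had an adjusted p under 0.05, the lowest being 0.199 for miR-221-z. Comparisons that share a group, such as Ha vs. Hb and Ha vs. La, share its libraries and are not independent of each other.

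**Figure D2:**
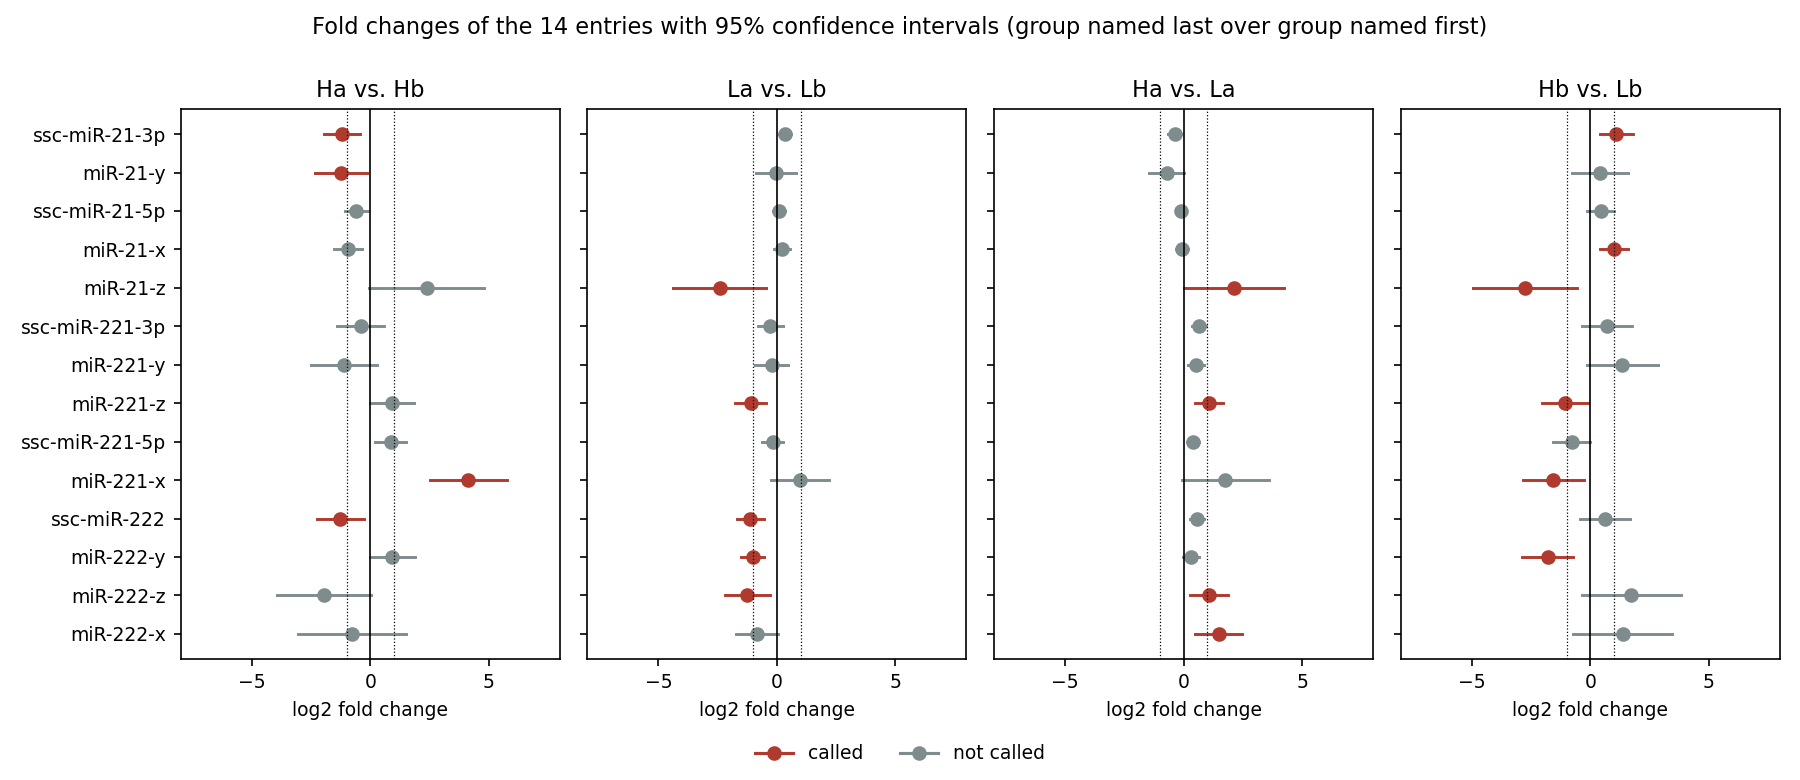
Log2 fold change (horizontal axes) of each of the 14 entries (vertical axis) in the 4 comparisons, with 95% confidence intervals from 3 libraries a group. Dotted lines mark a log2 fold change of 1 in either direction, and red marks entries that were called. Wide intervals belong to the entries with few counts, such as miR-21-z and miR-222-x.

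ssc-miR-21-5p, the main product of MIR21, was not called in any of the 4 comparisons. It was at 15535, 14712 and 11967 TPM in Ha, 11883, 6329 and 8376 TPM in Hb, 13152, 11417 and 12108 TPM in La and 14474, 16552 and 12878 TPM in Lb. Each Hb library lay below each Ha library and each Lb library, while all other pairs of groups adjoining in level (Lb, Ha, La and Hb, from high to low) overlapped. The log2 fold change was -0.58 ± 0.22 (SE) in Ha vs. Hb (adjusted p = 0.0552), 0.08 ± 0.12 in La vs. Lb (adjusted p = 0.594), -0.11 ± 0.10 in Ha vs. La (adjusted p = 0.554) and 0.45 ± 0.26 in Hb vs. Lb (adjusted p = 0.346). The 95% interval ran from -1.06 to -0.11 in Ha vs. Hb and from -0.17 to 0.34 in La vs. Lb. Summed over its 3 entries, the arm was at 14500 ± 1910 TPM (SD, n = 3) in Ha, 9083 ± 2921 TPM in Hb, 12614 ± 928 TPM in La and 15141 ± 1929 TPM in Lb, and no comparison of the sum was called.

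The longer form of this arm, miR-21-x, was at 494, 400 and 391 TPM in Ha, 333, 106 and 220 TPM in Hb, 444, 335 and 384 TPM in La and 475, 607 and 437 TPM in Lb. It was higher in Lb than in Hb by 1.01 ± 0.27 on the log2 scale (adjusted p = 0.0644), a call that needed Hb replicate 2 (0.87 without it) and Lb replicate 2 (0.86 without it), as the fold otherwise lay below the threshold. It was also lost with RLE size factors (0.985), filterByExpr (0.958) and DESeq2 (0.985). In Ha vs. Hb its log2 fold change of -0.94 ± 0.28 (adjusted p = 0.0196) stayed short of the threshold on the fold, and it passed both without Ha replicate 3 (-1.003) or without Hb replicate 1 (-1.04). In both comparisons the Hb libraries lay below all libraries of the other group.

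The 3p arm of miR-21, usually the less retained strand, differed between the breeds at 120 days. ssc-miR-21-3p was at 161, 147 and 121 TPM in Ha, 105, 22.4 and 60.6 TPM in Hb, 117, 96.6 and 100 TPM in La and 147, 156 and 146 TPM in Lb. The HZ libraries were all lower at 120 days than at 30 days, and the LC libraries were all higher. It fell in Ha vs. Hb by 1.20 ± 0.35 on the log2 scale (adjusted p = 0.0168) and was higher in Lb than in Hb by 1.11 ± 0.32 (adjusted p = 0.0773). In La vs. Lb the log2 fold change was 0.34 ± 0.13 (adjusted p = 0.0455), short of the threshold on the fold, and in Ha vs. La it was -0.36 ± 0.13 (adjusted p = 0.0855). Without Hb replicate 2, the lowest library, the values were -0.88 in Ha vs. Hb and 0.85 in Hb vs. Lb and neither was called. Without Hb replicate 1 they were -1.45 and 1.43.

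Its longer form, miR-21-y, had 15 to 25 counts per library in Ha, 4 to 9 counts in Hb, 9 to 24 counts in La and 11 to 19 counts in Lb. It fell in Ha vs. Hb by 1.24 ± 0.50 on the log2 scale without passing the adjustment (adjusted p = 0.0721). That call was lost without Ha replicate 1 (-1.08), Ha replicate 3 (-1.26), Hb replicate 2 (-1.10) or Hb replicate 3 (-1.15), and with all libraries under library size alone (-1.30) and DESeq2 (-1.23). The sum of the arm was at 145 ± 20.7 TPM (SD, n = 3) in Ha, 63.5 ± 41.9 TPM in Hb, 106 ± 10.8 TPM in La and 151 ± 5.33 TPM in Lb. This sum fell in Ha vs. Hb (log2 fold change -1.20 ± 0.34, adjusted p = 0.0150) and was higher in Lb than in Hb (1.10 ± 0.32, adjusted p = 0.0771), and both calls were lost without Hb replicate 2 (-0.87 and 0.85).

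ssc-miR-222, which is the 3p strand, was lower at 120 days in both breeds. It was at 1116, 820 and 1015 TPM in Ha, 970, 168 and 151 TPM in Hb, 1702, 1132 and 1294 TPM in La and 768, 976 and 398 TPM in Lb. The LC ages did not overlap, whereas Hb replicate 1 lay within the range of Ha and the other Hb libraries lay at 168 and 151 TPM. The log2 fold change was -1.12 ± 0.26 in La vs. Lb (adjusted p = 0.00425) and -1.26 ± 0.46 in Ha vs. Hb (adjusted p = 0.0492). Both rested on few libraries. The LC value was -0.80 without Lb replicate 3 and -0.97 without La replicate 1, and the HZ value was -0.97 without Hb replicate 2 and -0.88 without Hb replicate 3, none of which passed the threshold on the fold. With all libraries kept, the LC call was also lost under library size alone (-0.91, below the fold) and the HZ call after filterByExpr (-1.20, as it missed the threshold on p). Without Hb replicate 1 the HZ value was -2.16.

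Between breeds, every La library had more ssc-miR-222 than every Ha library, with a log2 fold change of 0.57 ± 0.14 (adjusted p = 0.0148) that was below the threshold on the fold and had an adjusted p of 0.709 with all 12 libraries in 1 fit. The summed markers of leukocytes, red cells and mesenchymal cells were also higher in every La library than in every Ha or Lb library, and their part in the results on ssc-miR-222 was not tested. At 120 days the groups overlapped and the log2 fold change was 0.63 ± 0.50 (adjusted p = 0.489), with 1.57 without Hb replicate 1 (adjusted p = 0.0234) and 0.42 and 0.27 without Hb replicate 2 or 3. The sum of the arm was at 1006 ± 153 TPM (SD, n = 3) in Ha, 463 ± 456 TPM in Hb, 1403 ± 298 TPM in La and 729 ± 297 TPM in Lb. It fell with age in HZ boars (log2 fold change -1.15 ± 0.41, adjusted p = 0.0450) and in LC boars (-1.10 ± 0.25, adjusted p = 0.00417). The HZ call was lost without Hb replicate 2 (-0.92) or Hb replicate 3 (-0.79), and the LC call without La replicate 1 (-0.96) or Lb replicate 3 (-0.88). They were also lost after filterByExpr (HZ, -1.10) and under library size alone (LC, -0.91). Without Hb replicate 1 the HZ value of the sum was -1.86 (adjusted p = 9.036e-05). Its Hb vs. Lb value, 0.51 ± 0.45 and not called with all libraries, was then 1.25 and called (adjusted p = 0.0589).

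miR-222-y, the form with another 3′ end, had 22.0, 18.4 and 23.0 TPM in Ha, 18.6, 48.5 and 33.1 TPM in Hb, 28.4, 22.5 and 23.7 TPM in La and 16.2, 16.2 and 9.35 TPM in Lb. The libraries with the most of it, Hb replicates 2 and 3, were those with the least ssc-miR-222. It fell in La vs. Lb by 1.02 ± 0.22 on the log2 scale (adjusted p = 0.00324) and was lower in Lb than in Hb (log2 fold change -1.79 ± 0.50, adjusted p = 0.0674). The LC value was -0.94 without La replicate 1 and -0.76 without Lb replicate 3, and the breed value at 120 days was -0.96 without Hb replicate 2, none of which was called. In Ha vs. Hb the log2 fold change was 0.93 ± 0.44 (adjusted p = 0.111). It was called with RLE size factors (1.04) and without Ha replicate 1 (1.04), Hb replicate 1 (1.45) or Hb replicate 3 (1.02), but was 0.29 without Hb replicate 2.

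The longer miR-222-z had 12, 7 and 14 counts in Ha, 6, 0 and 0 in Hb, 35, 17 and 31 in La and 15, 14 and 6 in Lb. It fell in La vs. Lb by 1.25 ± 0.43 on the log2 scale (adjusted p = 0.0352), a call that needed both La replicate 1 (-0.93 without it) and Lb replicate 3 (-0.92 without it). It was higher in La than in Ha by 1.07 ± 0.37 (adjusted p = 0.0790), which was lost without Ha replicate 2 (0.86) or La replicate 1 (0.74), under library size alone (0.98) and with all 12 libraries in 1 fit (1.08). It was not called in Ha vs. Hb (-1.96 ± 0.92, adjusted p = 0.112) or in Hb vs. Lb (1.74 ± 0.965, adjusted p = 0.318). With all 12 libraries in 1 fit both were called (-1.95 and 1.74), as was Ha vs. Hb with RLE size factors (-1.95). The 5p strand miR-222-x had 4, 4 and 6 counts in Ha, 6, 0 and 0 in Hb, 20, 9 and 19 in La and 11, 7 and 9 in Lb, and was higher in La than in Ha by 1.48 ± 0.46 (adjusted p = 0.0546). For both entries the 2 Hb libraries at 0 allow up to 0.327 TPM in replicate 2 and 0.386 TPM in replicate 3, and fitted fold changes without Hb replicate 1 depend on the prior count and are not given.

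The 3p arm of miR-221 has the seed of miR-222 but was not called with age in either breed. ssc-miR-221-3p was at 410, 342 and 383 TPM in Ha, 686, 97.5 and 121 TPM in Hb, 703, 479 and 503 TPM in La and 622, 658 and 288 TPM in Lb. Hb held both the second highest and the 2 lowest values of the 12 libraries. The log2 fold change was -0.41 ± 0.46 in Ha vs. Hb (adjusted p = 0.511), -0.28 ± 0.25 in La vs. Lb (adjusted p = 0.400) and 0.71 ± 0.49 in Hb vs. Lb (adjusted p = 0.428). Without Hb replicate 1 it was called both in Ha vs. Hb (-1.37, adjusted p = 0.000498) and in Hb vs. Lb (1.71, adjusted p = 0.0125). Without Hb replicate 2 or 3 the values moved towards 0, to -0.065 and -0.061 in the former and to 0.43 and 0.37 in the latter. In Ha vs. La every LC library was higher, by 0.65 ± 0.13 on the log2 scale (adjusted p = 0.00521), which is below the threshold on the fold and had an adjusted p of 0.645 with all 12 libraries in 1 fit. The sum of the arm was at 447 ± 39.8 TPM (SD, n = 3) in Ha, 343 ± 377 TPM in Hb, 657 ± 142 TPM in La and 611 ± 246 TPM in Lb. Its log2 fold change was -0.46 ± 0.45 in Ha vs. Hb (adjusted p = 0.450) and 0.75 ± 0.49 in Hb vs. Lb (adjusted p = 0.414), neither called. Without Hb replicate 1 both were called (-1.41 and 1.73). They were -0.11 and 0.48 without Hb replicate 2, and -0.11 and 0.41 without Hb replicate 3. Hb vs. Lb was also called without Lb replicate 3 (1.03).

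The longer miR-221-y followed the same libraries, at 67.7, 59.0 and 61.9 TPM in Ha, 84.3, 4.58 and 8.50 TPM in Hb, 108, 69.2 and 78.3 TPM in La and 92.4, 119 and 36.9 TPM in Lb. Its log2 fold change was -1.10 ± 0.65 in Ha vs. Hb (adjusted p = 0.206) and 1.35 ± 0.698 in Hb vs. Lb (adjusted p = 0.2802), and neither was called. Without Hb replicate 1 they were -2.88 (adjusted p = 3.042e-06) and 3.17 (adjusted p = 0.00214), without Hb replicate 2 -0.61 and 0.91, and without Hb replicate 3 -0.67 and 0.93. Hb vs. Lb was also called without Lb replicate 3 (1.70) and with all 12 libraries in 1 fit (1.35). miR-221-z, with another 3′ end, had 5.07, 3.04 and 7.50 TPM in Ha, 7.41, 10.1 and 7.98 TPM in Hb, 8.73, 10.8 and 11.6 TPM in La and 5.16, 7.66 and 3.65 TPM in Lb. It was higher in La than in Ha by 1.09 ± 0.28 on the log2 scale (adjusted p = 0.0201), fell in La vs. Lb by 1.11 ± 0.29 (adjusted p = 0.00979) and was lower in Lb than in Hb (log2 fold change -1.07 ± 0.45, adjusted p = 0.182). The first call was lost without Ha replicate 2 (0.81) or La replicate 3 (0.99), and the second without La replicate 3 (-0.98) or Lb replicate 3 (-0.86). Library size alone also ended these 2 calls (0.98 and -0.89). The third was lost under library size alone (-0.62), with all 12 libraries in 1 fit (-0.98), or when Hb replicate 2 (-0.52), Hb replicate 3 (-1.11), Lb replicate 1 (-1.01) or Lb replicate 3 (-0.86) was left out. It was called in Ha vs. Hb without Ha replicate 3 (1.27) or Hb replicate 1 (1.27), but not with all libraries (0.91 ± 0.43, adjusted p = 0.114), and was 0.53 there without Hb replicate 2.

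The main 5p entry of miR-221 was not called in any of the 4 comparisons with all libraries. ssc-miR-221-5p was at 166, 170 and 175 TPM in Ha, 395, 287 and 174 TPM in Hb, 236, 186 and 216 TPM in La and 219, 275 and 140 TPM in Lb. The Ha libraries were closely alike and lay below all La libraries, and Hb replicates 1 and 2 were the highest of all 12. The log2 fold change was 0.87 ± 0.30 in Ha vs. Hb (adjusted p = 0.0393) and 0.40 ± 0.11 in Ha vs. La (adjusted p = 0.0335, or 0.645 with all 12 libraries in 1 fit), both below the threshold on the fold. It was -0.18 ± 0.21 in La vs. Lb (adjusted p = 0.520), or 0.02 when scaled by library size alone, and -0.79 ± 0.36 in Hb vs. Lb (adjusted p = 0.220). Without Hb replicate 3 it was called in both comparisons that use Hb (1.14 and -1.01), and without Lb replicate 2 in Hb vs. Lb (-1.03), where it was -0.41 without Hb replicate 2. Summed with miR-221-x, the arm was at 171 ± 4.50 TPM (SD, n = 3) in Ha, 287 ± 110 TPM in Hb, 213 ± 25.6 TPM in La and 212 ± 68.0 TPM in Lb. The sum was not called in any comparison, with a log2 fold change of 0.89 ± 0.30 in Ha vs. Hb (adjusted p = 0.0348).

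miR-221-x, the form of this arm with another 3′ end, gave the largest change with age among the 14 entries. It had 1 count in each Ha library and 9, 20 and 12 counts in Hb, 2, 3 and 9 in La and 12, 9 and 6 in Lb. With 3 counts in Ha against 41 in Hb, the ratio of rates was 17.8 with an exact 95% Poisson interval from 5.68 to 89.8, which covers counting error only. edgeR gave a log2 fold change of 4.14 ± 0.76 (adjusted p = 0.000958), and this call held with each library left out in turn (3.65 to 4.58). It was lower in Lb than in Hb (log2 fold change -1.55 ± 0.59, adjusted p = 0.145), a call that was lost without Hb replicate 2 (-0.90), Lb replicate 1 (-1.58) or Lb replicate 3 (-1.38), and under library size alone (-1.10). In La vs. Lb, with 14 and 27 counts, it was not called (0.98 ± 0.55, adjusted p = 0.186), although it was under library size alone (1.20).

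miR-21-z, the shortest entry at 20 nt, was the rarest of the 14, with 36 counts in all and none in 3 libraries. It had 0, 0 and 3 counts in Ha, 3, 5 and 4 in Hb, 2, 5 and 11 in La and 2, 1 and 0 in Lb. A count of 0 allows up to 0.277 TPM in Ha replicate 1, 0.304 TPM in Ha replicate 2 and 0.267 TPM in Lb replicate 3. The levels were thus highest in old HZ boars and young LC boars, at 0.488 ± 0.0743 TPM (SD, n = 3) in Hb and 0.409 ± 0.21 TPM in La. The ratio of rates over the group was 0.195 in La vs. Lb (18 against 3 counts, exact 95% Poisson interval 0.0368 to 0.668), 4.58 in Ha vs. La (3 against 18, 1.34 to 24.3) and 0.172 in Hb vs. Lb (12 against 3, 0.0311 to 0.636). edgeR called these 3, with log2 fold changes of -2.42 ± 0.90 (adjusted p = 0.0487), 2.13 ± 0.99 (adjusted p = 0.199) and -2.77 ± 1.01 (adjusted p = 0.132). With age in HZ boars the ratio was 5.21 (3 against 12 counts, 1.41 to 28.8). The log2 fold change in edgeR, 2.38 ± 1.13, missed the threshold on the unadjusted p-value (adjusted p = 0.117).

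The calls of miR-21-z depended on single libraries and on the test. The La vs. Lb call needed La replicate 3 (-1.99 without it) and Lb replicate 3 (-1.89 without it), and the Hb vs. Lb call needed Hb replicate 2 (-2.37 without it) and Lb replicate 3 (-2.29 without it). That in Ha vs. La was lost without Ha replicate 1 (1.54), Ha replicate 2 (1.63), La replicate 2 (2.05) or La replicate 3 (1.73). With all libraries kept, DESeq2 ended the calls in La vs. Lb (-2.58) and Ha vs. La (2.22) and library size alone that in Ha vs. La (2.04). The entry was called in Ha vs. Hb with RLE size factors (2.44) and with all 12 libraries in 1 fit (2.40), and also without Ha replicate 3, which leaves no count in Ha, and without Hb replicate 1 (2.76).

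Whether the age effect differed between HZ and LC boars was tested over all 12 libraries. None of the 14 entries reached an adjusted p under 0.05 in edgeR, against 1.38% of all miRNAs. Estimates of entries with an unadjusted p under 0.05 are given next. The share of all miRNAs at that threshold was not computed, so the number of such entries is not read as a result. The lowest adjusted p was that of ssc-miR-21-3p, whose age effect was higher in LC boars by 1.48 ± 0.39 on the log2 scale (adjusted p = 0.0553). In the same direction were miR-21-x (1.09 ± 0.31, adjusted p = 0.0699) and ssc-miR-21-5p (0.61 ± 0.22, adjusted p = 0.128). In the opposite direction were all 4 entries with another 3′ end, miR-222-y (-2.002 ± 0.55, adjusted p = 0.0592), miR-221-z (-2.07 ± 0.55, adjusted p = 0.0577), miR-221-x (-3.23 ± 0.93, adjusted p = 0.0699) and miR-21-z (-4.83 ± 1.43, adjusted p = 0.0782), and ssc-miR-221-5p (-1.11 ± 0.39, adjusted p = 0.117). Other settings passed more of them: DESeq2's Wald test gave 5 entries with an adjusted p under 0.05 (against 8.33% of all miRNAs), and edgeR gave 4 after filterByExpr (7.25%), 1 with RLE size factors (2.48%) and 7 without Hb replicate 1 (11.6%). For ssc-miR-222 and ssc-miR-221-3p the estimates were 0.09 ± 0.63 and 0.07 ± 0.63, with intervals from -1.25 to 1.42 and from -1.26 to 1.41, and without Hb replicate 1 they were 1.11 (adjusted p = 0.0847) and 1.15 (adjusted p = 0.0552).

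Ratios within a library do not depend on how libraries are scaled, and 8 such quantities were compared between ages with an exact permutation test, two-sided, that permuted age within each breed. With 400 arrangements its smallest p was 0.005, and within 1 breed the smallest p was 0.1, so no breed could pass alone. The log2 ratio of the 3p sums of miR-222 to miR-221 was lower at 120 days in both breeds, with 1.24, 1.05 and 1.20 in Ha, 0.35, 0.94 and 0.42 in Hb, 1.08, 1.05 and 1.15 in La and 0.13, 0.34 and 0.31 in Lb. Each library at 120 days lay below each library of its breed at 30 days. The mean difference was -0.71 (exact permutation p = 0.005, the smallest possible, adjusted p = 0.02 over the 8 quantities), from -0.59 in HZ boars and -0.83 in LC boars. The neighbouring hairpins of the X chromosome thus gave unequal changes, and the ratio kept its direction with each library left out (-0.81 to -0.66).

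**Figure D3:**
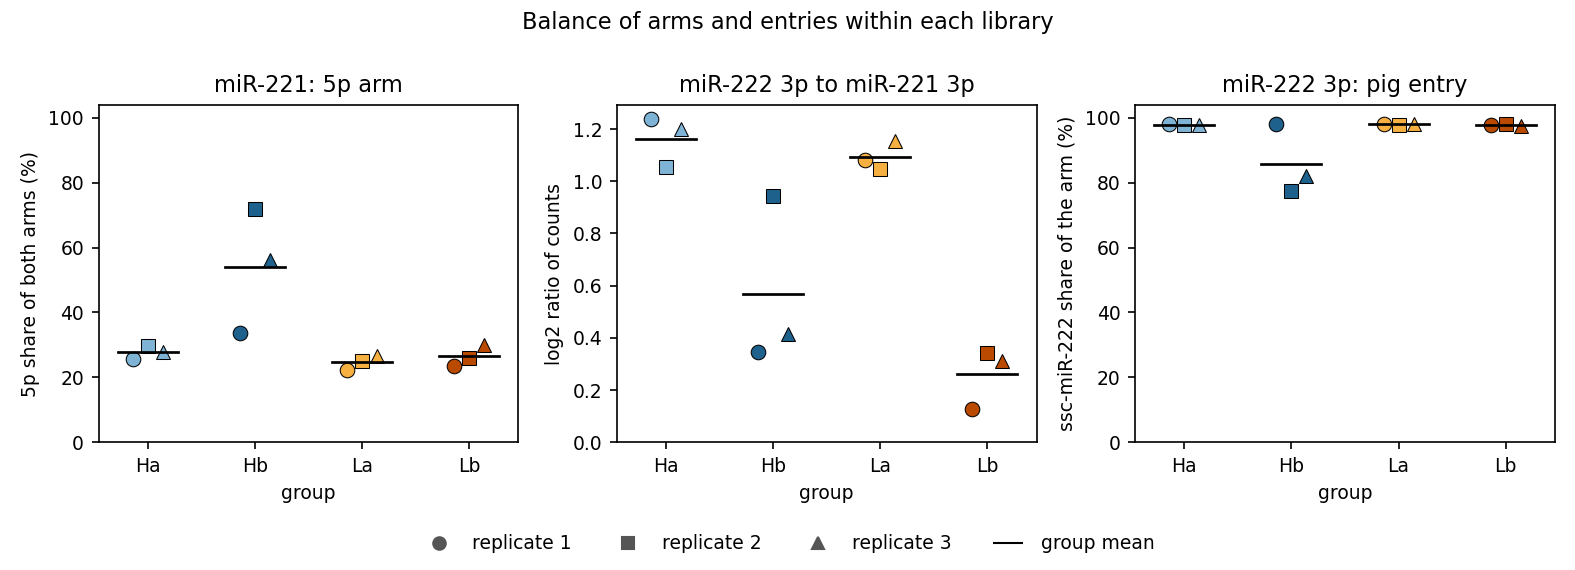
Left, 5p share of the counts of both arms of miR-221 (%); centre, log2 ratio of the summed counts of the 3p arms of miR-222 and miR-221; right, share of ssc-miR-222 in the counts of its arm (%), each by group. Symbols are replicates and lines are means of 3 libraries. Hb spreads widest in all 3 panels, and in the centre panel the libraries at 120 days lie below those of the same breed at 30 days.

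The 5p share of miR-221 was 25.6, 29.6 and 27.9% in Ha, 33.8, 72.0 and 56.0% in Hb, 22.4, 24.9 and 26.7% in La and 23.4, 26.0 and 30.0% in Lb. All Hb libraries lay above all others, and in Hb replicates 2 and 3 the 5p arm was the more abundant. The mean age difference was 13.99 percentage points (exact permutation p = 0.025, adjusted p = 0.0667), from 26.2 points in HZ boars (exact p = 0.1) and 1.77 points in LC boars (exact p = 0.5). It was not past an exact p of 0.05 without Hb replicate 2, and the values with each library left out lay between 9.47 and 19.0 points. The 5p share of miR-21 stayed between 98.9 and 99.6% in all 12 libraries, with a mean age difference of 0.0906 points (exact permutation p = 0.5).

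ssc-miR-222 made up 97.6 to 98.2% of its arm in all libraries but Hb replicates 2 and 3, where it made up 77.5 and 82.0%. The mean age difference was -6.06 points (exact permutation p = 0.17), or -9.10 points without Hb replicate 1 (exact permutation p = 0.025). ssc-miR-221-5p made up 99.9% of its arm in Ha and La, 99.4% in Hb and 99.6% in Lb, a mean age difference of -0.401 points (exact permutation p = 0.005, adjusted p = 0.02) that mirrors the counts of miR-221-x. ssc-miR-221-3p made up 84.8% (Ha), 87.7% (Hb), 85.4% (La) and 86.0% (Lb) of the counts of its arm, with a mean age difference of 1.75 points (exact permutation p = 0.035, adjusted p = 0.07). For ssc-miR-21-5p and ssc-miR-21-3p the differences were 0.194 points (exact permutation p = 0.51) and 0.0906 points (exact permutation p = 0.66).

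Other miRNAs known from spermatogonial stem cells were listed for comparison (miR-20a, miR-20b, miR-106a, miR-135, miR-204, miR-224 and miR-544), and 20 entries matched. They include miR-20-x, -y and -z and miR-106-x, -y and -z, whose names carry no letter for the family member, so they may belong to other members such as miR-106b. Their summed level was 1800 to 1934 TPM in Ha, 799 to 1809 TPM in Hb, 1808 to 2009 TPM in La and 1861 to 2259 TPM in Lb, with the low value in Hb replicate 2. With age, 4 of the 20 fell and 1 rose in HZ boars, against 39.6% of all miRNAs called, and none fell and 1 rose in LC boars, against 32.1%. The entry that rose in both was miR-20-x, from 57.5 to 119 TPM in HZ boars (log2 fold change 1.06 ± 0.40, adjusted p = 0.0540) and from 47.9 to 173 TPM in LC boars (1.67 ± 0.13, adjusted p = 5.165e-07). Among those that fell in HZ boars was ssc-miR-106a, from 20.4 to 8.19 TPM (-1.20 ± 0.35, adjusted p = 0.0158). The most abundant of the list, ssc-miR-20a-5p, was not called in any comparison. The median log2 fold change of the 20 was -0.57 in HZ boars and -0.17 in LC boars with age, where that of all miRNAs was 0.32 in each.

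Summed levels of markers of other testis and blood cells differed between the ages and among the Hb libraries. The entries matched to miR-34b/c and miR-449 of meiotic and haploid germ cells summed to 29.8 to 92.4 TPM in Ha and 20.2 to 30.5 TPM in La, against 3004 to 14794 TPM in Hb and 12608 to 15525 TPM in Lb, and all 7 rose in both breeds. Some of these names, such as miR-34-z and miR-449-z, carry no letter, so they may belong to other family members. Hb replicate 2 was the lowest at 120 days, with 3004 TPM. Smooth muscle markers (miR-143 and miR-145) summed to 22030 to 36347 TPM in Ha, 58183 to 92500 TPM in Hb, 20687 to 26749 TPM in La and 55596 to 65214 TPM in Lb. Mesenchymal markers (miR-199a, miR-199b and miR-214) ran from 74848 to 77877 TPM in Ha to 32285 to 43890 TPM in Hb, and from 84690 to 94056 TPM in La to 47472 to 55355 TPM in Lb.

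In Hb replicate 1, in which miR-221 3p and miR-222 3p were highest, the leukocyte, red cell, mesenchymal and spermatogonial sums were also the highest of the Hb libraries. The leukocyte list (miR-142, miR-150, miR-155 and miR-223, 12 entries) summed to 893, 635 and 437 TPM in Hb replicates 1 to 3, the red cell list (miR-144, miR-451 and miR-486, 10 entries) to 2298, 1027 and 863 TPM, the mesenchymal list to 43890, 32285 and 35236 TPM and the spermatogonial list to 1809, 799 and 1786 TPM. The smooth muscle list ran the other way, with 58183, 81392 and 92500 TPM, and the germ cell list had its middle value there, with 7356, 3004 and 14794 TPM. Leukocyte sums ranged from 1084 to 1129 TPM among Ha libraries, 1352 to 1481 TPM among La libraries and 776 to 1202 TPM among Lb libraries, and red cell sums from 1357 to 1768 TPM (Ha), 2201 to 2468 TPM (La) and 1220 to 1272 TPM (Lb). These 2 sums and the mesenchymal one were higher in every La library than in every Ha or Lb library. The endothelial miR-126 entries were nearly level across Hb, at 11458 to 12312 TPM. In all, 2 entries of the germ cell list, miR-34-z and miR-449-z, and 1 of the mesenchymal list, miR-214-x, had no count in at least 1 group. Whether any of these lists plays a part in the levels of miR-21, miR-221 and miR-222 was not tested.

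Profiles were compared with those of the 429 other miRNAs that averaged 10 TPM or more, as the root mean square distance between centred log2(TPM + 1) values over the 12 libraries. Nearest to ssc-miR-21-5p were ssc-miR-769-5p (0.141), ssc-miR-24-1-5p (0.157) and ssc-miR-30e-5p (0.176), where the median miRNA lay at 0.513 and miR-21-x at 0.281. Outside the 14 entries, the nearest to ssc-miR-21-3p were ssc-miR-664-3p (0.153), ssc-miR-2320-5p (0.216) and ssc-miR-1296-5p (0.245), against a median of 0.702, while miR-21-x lay at 0.197. ssc-miR-222 and ssc-miR-221-3p lay 0.439 apart. ssc-miR-199b-5p (0.465), ssc-miR-200b (0.489) and miR-484-z (0.514) were the nearest others to ssc-miR-222, and ssc-miR-744 (0.410), miR-652-y (0.422) and ssc-miR-107 (0.464) to ssc-miR-221-3p. ssc-miR-221-5p was nearest to ssc-miR-148b-3p (0.293), miR-10-y (0.331) and ssc-miR-151-5p (0.335). The median miRNA lay at 1.01 from ssc-miR-222, 0.843 from ssc-miR-221-3p and 0.704 from ssc-miR-221-5p. The entries' own spreads on this scale were 0.373 (ssc-miR-21-5p), 0.755 (ssc-miR-21-3p), 1.08 (ssc-miR-222), 0.894 (ssc-miR-221-3p) and 0.400 (ssc-miR-221-5p). For ssc-miR-221-5p the nearest distances were thus not far below its own spread. These distances describe libraries that share depth and scaling.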

How the data were processed

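Small RNA was sequenced from the testes of HZ and LC boars, 3 libraries in each of 4 groups. Per the labels and the paper's methods, the authors filtered reads with fastp, removed tags of other non-coding RNAs and of exons, introns and repeats of Sscrofa11.1, aligned what remained to miRBase (bowtie) and counted tags with miRDeep2. They deposited raw counts, which are whole tag counts per miRNA, with a column of their totals, and TPM, which scales a count by a library total and writes 0 as 0.01. Predicted miRNAs' hairpins were not used here.

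Counts were tested with edgeR 4.0.16 in R 4.3.3 (glmQLFit, glmQLFTest, TMM, not robust), separately for each comparison over its 6 libraries and the miRNAs with at least 1 count, and over all 12 libraries for the interaction of breed and age. The paper names edgeR and the thresholds on the fold and p, but not its test. p-values were adjusted by Benjamini-Hochberg over all miRNAs tested. Standard errors were derived from the F statistic. Entries sharing at least 15 bases at the 5′ end with a pig entry of the same number were assigned to its arm, and the arm sums were fitted in place of their entries. The fits were tested on simulated counts. All 14 entries are named, with the 3 miRNAs whose profiles lay nearest to each main entry. The members and lists were chosen with earlier results of these data known. No 2 replicates agreed within sampling noise (chi-square over degrees of freedom, 36.21 to 768.2), so each library counted as 1 sample. TMM factors were 0.694 to 1.20. Alternatives were RLE size factors, library size alone, filterByExpr, DESeq2 1.42.0, all 12 libraries in 1 fit, the replicate number as a block, and each library left out in turn. For the ratios within a library they were paired differences and the main entry of each arm alone.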

Additional observations from a re-analysis of the deposited data

Results flagged for a closer look

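For ssc-miR-21-3p all libraries were lower at 120 days in HZ boars and all were higher in LC boars, and the age difference in LC boars minus that in HZ boars was 125.21 TPM (edgeR interaction, adjusted p = 0.0553).

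For miR-21-z all libraries were higher at 120 days in HZ boars and all were lower in LC boars, with a difference of -0.71583 TPM between the age differences (edgeR interaction, adjusted p = 0.0782) that rests on 36 counts.

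The 5p share of both arms of miR-21 was higher in all libraries at 120 days in HZ boars and lower in all in LC boars, and the age differences differed by -0.51086 percentage points. This difference between the breeds was not tested.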

How the results depend on the processing

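Of 896 recomputed fold changes of single entries, 345 kept their direction and their side of the thresholds under another setting and 410 with a library left out, while 4 and 21 turned direction, none of them called. With the percentage of all miRNAs called in the same fit in brackets, RLE size factors gave 7 entries in Ha vs. Hb (40.6%), and the interaction passed for 1 entry (2.48%) and 1 arm sum. Scaling by library size alone left 3 entries (34.1%) and 0 arm sums called in La vs. Lb and 1 entry in Ha vs. La (10.3%), and turned the La vs. Lb values of ssc-miR-221-5p (0.025), miR-21-y (0.19) and the miR-221 5p sum (0.028) and the interaction of miR-222-x (0.15) and the miR-222 3p sum (0.20). After filterByExpr, which tests fewer miRNAs, 1 arm sum was called in Ha vs. Hb, 2 entries in Ha vs. La (8.58%), and 4 entries (7.25%) and 1 arm sum in the interaction. DESeq2 gave 5 entries (8.33%) and 1 arm sum in the interaction. For the others the cause was not tested.

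The same replicate numbers recur in all groups, and 12 same-numbered pairs correlated at -0.26 to 0.19, 6 of them over 0.1. In 6 of 12 cases a library correlated best with its own number in the other group. These correlations use deviations from group means and share groups, so they cannot decide whether the numbers pair the libraries. With the replicate block, the interaction passed for 1 arm sum, its values for miR-222-x and the miR-222 3p sum were 0.039 and 0.14, and the ssc-miR-221-3p share differed by 1.75 points on paired differences and no longer passed; the counts of entries called moved to 5 (Ha vs. Hb, 34.1% of all miRNAs), 4 (La vs. Lb, 30.2%), 3 (Ha vs. La, 8.37%) and 7 (Hb vs. Lb, 16.5%). miR-221-y was called there in Ha vs. Hb (-1.97, adjusted p = 0.0444) and Hb vs. Lb (1.95, adjusted p = 5.993e-05) and miR-222-z in Hb vs. Lb (2.02), and miR-21-z was not in La vs. Lb (-2.28), Ha vs. La (2.14) or Hb vs. Lb (-2.78).

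With each library left out in turn, the entries called numbered 1 to 12 in Ha vs. Hb, 0 to 6 in La vs. Lb, 1 to 4 in Ha vs. La, 0 to 11 in Hb vs. Lb and 0 to 7 in the interaction, where 34.3 to 40.2%, 29.0 to 33.3%, 8.43 to 11.3%, 12.7 to 21.1% and 0 to 11.6% of all miRNAs were called. Arm sums numbered 0 to 3, 0 to 1, 0 in all, 0 to 3 and 0 to 1. Mean age differences of shares ran from 9.47 to 19.0 points (miR-221 5p), 1.33 to 2.28 points (ssc-miR-221-3p) and -9.10 to -3.97 points (ssc-miR-222). Values around 0 changed sign in La vs. Lb for ssc-miR-21-5p (-0.12 to 0.20), miR-21-x (-0.041 to 0.34), the miR-21 5p sum (-0.11 to 0.13), miR-21-y (-0.23 to 0.16), ssc-miR-221-3p (-0.60 to 0.046), miR-221-y (-0.69 to 0.17) and ssc-miR-221-5p (-0.53 to 0.075), in Ha vs. La for miR-21-x (-0.14 to 0.021), and in the interaction for ssc-miR-221-3p (-0.27 to 1.15), the miR-221 3p sum (-0.23 to 1.18), ssc-miR-222 (-0.30 to 1.11), the miR-222 3p sum (-0.38 to 0.79) and miR-222-x (-0.67 to 4.47, where the upper value comes without Hb replicate 1, leaves Hb at 0 counts, depends on the prior count and is no size). Entries under about 2 TPM rest on few counts, and with 3 libraries a group 1 library can decide a call.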

Other observations

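One grouping was seen after the values were known and was not tested. In Ha vs. Hb, the 4 entries whose 3′ end departs from the pig entry had log2 fold changes above 0, with 0.93 for miR-222-y, 0.91 for miR-221-z, 4.14 for miR-221-x and 2.38 for miR-21-z. The 4 that lengthen a pig entry lay below 0, with -0.94 for miR-21-x, -1.24 for miR-21-y, -1.10 for miR-221-y and -1.96 for miR-222-z. Only miR-221-x and miR-21-y among these 8 were called, and in La vs. Lb the first 4 had -1.02, -1.11, 0.98 and -2.42 and the lengthened 4 had 0.21, -0.038, -0.21 and -1.25, so the signs did not divide there.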
